A study of Mus musculus with 18 samples.

Results

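The genes described here are the 43 protein-coding genes of the count tables, out of 55471 gene identifiers, whose symbol is Psma, Psmb, Psmc, Psmd or Psme followed by a number. Of these, 19 carry the names of the proteasome core particle (Psma and Psmb) and 24 those of the regulatory particles (Psmc, Psmd and Psme). The mRNA of E14 cells, a mouse embryonic stem cell line, was sequenced in cells lacking GCN2 (Gcn, genotype Eif2ak4-/-) and in wild-type cells (Wt). For 3 h the cells received medium without arginine (Arg) or without leucine (Leu), or with all amino acids (Unstarved). The groups are Gcn Arg, Gcn Leu, Gcn Unstarved, Wt Arg, Wt Leu and Wt Unstarved, with 3 libraries each. All 6 groups had been grown with 15% serum and leukaemia inhibitory factor, and during the 3 h all had lysine, this factor and 5% dialyzed serum. How the GCN2-deficient cells were made, and whether they are 1 clone, is not given in the sources used here. Nothing in the labels ties the libraries of a group to separate cultures. The p-values therefore measure only how far these samples spread, which may be technical in origin.

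The proteasome degrades proteins that carry ubiquitin chains and returns their amino acids to the cell as peptides, which makes it a known source of amino acids when supply is short. Its core particle is a barrel of stacked rings: alpha subunits form the outer rings and gate the entrance, and beta subunits form the inner rings, where some of them cut peptide bonds. The regulatory particle binds ubiquitin chains and unfolds substrates with a ring of ATPases (Psmc), held by non-ATPase subunits (Psmd) that form its base and lid, while other activators (Psme) cap the core without unfolding. Most of these genes are known targets of NRF1, an endoplasmic reticulum-bound transcription factor encoded by Nfe2l1 that is released when proteasome activity drops. GCN2, the product of Eif2ak4, is the kinase that senses uncharged tRNA.

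Library totals ran from 14.8 to 38.8 M (mega) counts. Eif2ak4 averaged 5.12 ± 0.85 CPM in the 9 Gcn libraries and 29.4 ± 2.1 CPM in the 9 Wt libraries (SD), with no overlap, where CPM stands for counts per 1 M counts of the library, scaled with edgeR's TMM factors. The 8 embryonic stem cell markers summed to 7530 to 7840 CPM in Gcn Arg, 8440 to 8950 CPM in Gcn Leu and 7730 to 8210 CPM in Gcn Unstarved, and to 6470 to 7860 CPM in Wt libraries. The 8 germ layer markers summed to 42.5 to 52.2 CPM in Gcn Arg, 38.8 to 41.3 CPM in Gcn Leu and 29.1 to 33.9 CPM in Gcn Unstarved, with no overlap, and to 30.6 to 37.6 CPM in Wt libraries. No marker of either list was at 0 in a whole group. Core members set the 3 Gcn libraries numbered 1 apart: they took 0.293%, 0.305% and 0.314% of all counts in them, against 0.357% to 0.410% in the other 6. Results on Gcn groups are therefore also given without these 3 libraries. As they were picked by counts of the members themselves, leaving them out is not an independent check, and it leaves fewer libraries per Gcn group. Gcn libraries of the same number deviated from their group means together, so comparisons within Gcn are also given with the replicate number as a block. Wt libraries of the same number did so in part, and their counts of members called are given with the block as well. In 7 members at least 20% of the 43-base words of the transcripts occur in another gene (Psmb5 64.1%, Psme2 61.8%, Psma5 59.4%, Psma4 36.3%, Psmd2 31.6%, Psmc1 24.2%, Psma3 23.1%), and the counts of these are uncertain. A further limit is that 21 members overlap another annotated gene and the strand setting of the counting is not given in the sources used here.

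Promoter windows of RefSeq on build GRCm38.p6, from 250 bases before to 50 after each annotated start, were matched by symbol for 36 of the 43 members (39 windows). They were searched on both strands for TGANNNNGC, the core letters of the antioxidant response element that NRF1 and its relative NRF2 bind. The letters occur in 23 of the 39 windows (59%), against 41.3% of the 32851 windows of genes on the other chromosomes. They occur in 12 of 16 core windows (75%) and 11 of 23 regulatory windows (47.8%). TGATGNAA, the letters of the element bound by ATF4, which can share its TGA with TGANNNNGC, occur in 1 of 39 windows (2.56%), against 3.97% of the 32851 windows. The letters of the interferon-stimulated response element (GAAA, any 2 bases, GAAA) occur in 4 windows (10.3%), against 3.44%. The windows below belong to members that stand for different patterns in the results: Psmb3, a core subunit called lower in Gcn Arg, Psmd5 and Psmd11, called lower with leucine starvation in both genotypes, and Psme4, called lower in both starved Gcn groups. Capitals mark TGANNNNGC or its reverse complement, and Psmd11 holds none.
Psmb3, chr11:97703184-97703483, + strand: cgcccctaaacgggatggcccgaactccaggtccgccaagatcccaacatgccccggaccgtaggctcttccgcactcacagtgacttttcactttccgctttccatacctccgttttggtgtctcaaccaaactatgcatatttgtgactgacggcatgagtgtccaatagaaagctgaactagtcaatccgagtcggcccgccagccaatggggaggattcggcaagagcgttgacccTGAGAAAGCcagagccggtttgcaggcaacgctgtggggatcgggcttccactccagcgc
Psmd5, chr2:34870913-34871212, - strand: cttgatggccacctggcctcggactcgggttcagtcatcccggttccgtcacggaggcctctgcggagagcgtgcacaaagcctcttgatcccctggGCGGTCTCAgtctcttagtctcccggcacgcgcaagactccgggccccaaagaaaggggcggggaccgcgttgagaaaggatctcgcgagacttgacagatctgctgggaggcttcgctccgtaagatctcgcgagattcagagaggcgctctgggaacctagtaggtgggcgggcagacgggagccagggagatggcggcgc
Psmd11, chr11:80428365-80428664, + strand: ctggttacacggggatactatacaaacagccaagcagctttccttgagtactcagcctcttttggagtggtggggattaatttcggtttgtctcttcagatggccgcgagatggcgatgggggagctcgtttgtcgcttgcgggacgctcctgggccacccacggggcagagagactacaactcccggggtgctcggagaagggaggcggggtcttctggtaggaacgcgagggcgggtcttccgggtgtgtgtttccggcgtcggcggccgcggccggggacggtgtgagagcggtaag
Psme4, chr11:30771525-30771824, + strand: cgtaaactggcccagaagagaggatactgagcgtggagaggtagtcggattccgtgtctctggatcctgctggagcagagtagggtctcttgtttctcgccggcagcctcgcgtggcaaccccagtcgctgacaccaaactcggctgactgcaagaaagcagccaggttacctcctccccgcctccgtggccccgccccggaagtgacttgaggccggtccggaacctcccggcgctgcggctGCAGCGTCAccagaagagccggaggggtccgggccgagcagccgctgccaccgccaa
A match is a run of letters and was not tested as a binding site.

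Per length, the members' mRNA levels spanned a wide range in unstarved cells, with the length taken as the union of a gene's annotated exons. Psma6, an alpha subunit, averaged 288 ± 34 CPM per kb of exon in Gcn Unstarved and 264 ± 1.2 in Wt Unstarved (SD, n = 3 each). Psmb4, a non-catalytic beta subunit, followed with 223 ± 29 and 251 ± 18 CPM per kb in Gcn and Wt Unstarved, and Psmc5, an ATPase, with 216 ± 5.6 and 240 ± 2.5 CPM per kb in Gcn and Wt Unstarved. Psmb4 and Psmc5 lay within 1 SD of each other in both genotypes. This order depends on the length used: per kb of the longest transcript, Psmb4 came first over the 18 libraries at 371 ± 39 CPM, then Psmb6 at 343 ± 27, Psma6 at 308 ± 31, Psmd7 at 239 ± 22 and Psmc5 at 217 ± 24 (SD). Among the 31 subunits of the constitutive particle, Psma3 was lowest over the 18 libraries with either length, at 33.7 ± 3.4 CPM per kb of exon and 46.1 ± 4.6 CPM per kb of the longest transcript (SD). Psmd1 had 33.9 ± 3.4 CPM per kb of exon, next to Psma3, and 79.1 ± 7.8 CPM per kb of the longest transcript, above Psmd11 and Psmc2. The assembly chaperone Psmd9 had 5.86 ± 0.39 CPM per kb in Gcn Unstarved and 7.05 ± 0.36 in Wt Unstarved. Psma8, the alpha subunit of the testis-type core, had 8.37 ± 0.64 and 7.77 ± 0.41 CPM per kb in Gcn and Wt Unstarved. The interferon-inducible Psmb9 and Psmb8 were below 1 CPM per kb in every library, while Psmb10, the remaining immunoproteasome subunit, averaged 30.6 ± 5.7. Psmb11, the thymus-specific beta subunit, had 0 to 2 counts in each of the 18 libraries and was not tested. No difference in it was detectable at this depth.

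**Figure D1:**
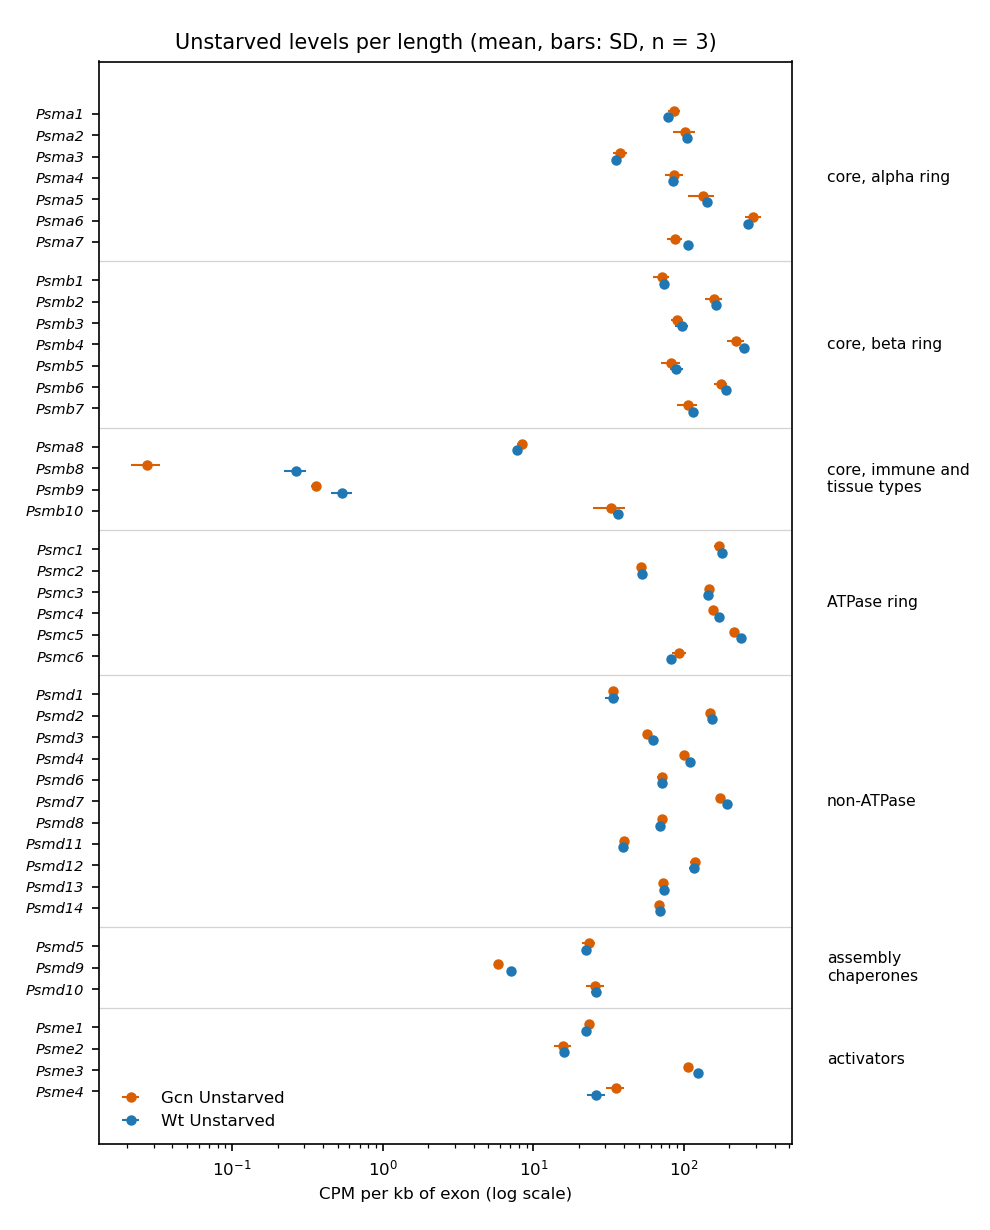
Mean level of each proteasome gene in unstarved cells, in CPM per kb of exon on a log axis, with Gcn above Wt in each row and bars showing the SD of 3 libraries; Psmb11 is left out. The ring, lid and base subunits lie within about one order of magnitude, while Psmb8 and Psmb9 lie below 1 CPM per kb.

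Each starved group was set against the unstarved group of its genotype, and a gene was called at a Benjamini-Hochberg adjusted p under 0.05 in edgeR's quasi-likelihood test over all genes. In Gcn Arg, 7 of 41 tested members (17.1%) were called lower, where 13.7% of all 16369 tested genes were, and none was called higher, where 14.3% were. DESeq2 and limma-voom also called none higher, and 1 was higher at an unadjusted p under 0.05 in edgeR. With the replicate number as a block, 27 members (65.9%) were called lower against 24.2% of all genes, and 1 (2.44%) higher against 22.3%. In Gcn Leu, 6 members (14.6%) were called lower where 10.0% of all genes were, and none was called higher, where 11.7% were, by edgeR (0 at an unadjusted p under 0.05), DESeq2 or limma-voom. With the block, 14 members (34.1%) were called lower against 20.2% of all genes and 2 higher against 20.5%. Without the 3 Gcn libraries numbered 1, 5 members were lower and 1 higher in Gcn Arg (12.5% and 13.0% of all genes), and 4 were lower and none higher in Gcn Leu (8.95% and 10.9%). The members' median was -0.19 in Gcn Arg and -0.06 in Gcn Leu, against -0.01 and 0.0 for all genes. Scaling by library size alone moved the median of all genes by 0.12 in Gcn Arg and the share of calls that were higher to 71.2%, against 51.0% with TMM. Under that scaling the members' median was -0.07 in Gcn Arg, where that of all genes was 0.11. In Gcn Leu it turned to 0.01, where that of all genes was 0.08, and 71.0% of all calls were higher, against 53.9% with TMM. The members' summed share of counts was 0.897% ± 0.067 in Gcn Arg, 0.92% ± 0.05 in Gcn Leu and 0.946% ± 0.062 in Gcn Unstarved (SD, n = 3 each), and these groups overlapped. Of the 6 germ layer markers tested, 3 were called higher and 1 lower in Gcn Arg, and 2 and 1 in Gcn Leu, while of the 8 stem cell markers 2 were higher and 1 lower in Gcn Arg, and 3 higher and none lower (edgeR) in Gcn Leu. The part of these markers in the Gcn results was not tested. In bulk samples like these, fewer cells of a type and less RNA per cell cannot be told apart.

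In Wt Arg, 18 of 42 tested members (42.9%) were called lower, where 20.0% of all 16140 tested genes were, and 1 member (2.38%) was called higher, where 20.9% of all genes were. In Wt Leu, 14 of 42 (33.3%) were called lower against 14.1% of all genes, and 1 was called higher against 15.5%. With the block, 20 members were lower and 2 higher in Wt Arg, where 4069 and 4025 of all 16140 genes were. In Wt Leu the block gave 21 lower and 1 higher, where 3268 and 3287 of all genes were. Counts of calls in the 2 genotypes cannot be read against each other, since variation beyond counting error was larger in the Gcn fit (coefficient 0.114, against 0.0804 in Wt). The median log2 fold change of the members was -0.12 in Wt Arg and -0.15 in Wt Leu, where the median of all genes was -0.01 and 0.01. Over all genes, log2 fold change fell with the share of G and C bases (GC) in Wt Arg (Spearman -0.307) and Wt Leu (-0.258). It hardly did in Gcn Arg (-0.0491) or Gcn Leu (-0.0133). Members had a median GC of 49.7%, against 50.0% of all genes in the Wt fit. With the block and a GC correction, 14 of the 19 members called in Wt Arg kept a call, as did 14 of 15 in Wt Leu. The members' summed share of all counts was lower with starvation, at 0.931% ± 0.013 in Wt Arg, 0.921% ± 0.012 in Wt Leu and 1.0% ± 0.013 in Wt Unstarved (SD, n = 3 each), with no overlap of either starved group with Wt Unstarved.

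How the rates at which the 2 particles were called lower compared depended on the group and the fit. The rates were alike in Gcn Arg without the block and in Gcn Leu with it. No difference between the particles was tested. Of all genes, 13.7% were called lower in Gcn Arg and 10.0% in Gcn Leu (24.2% and 20.2% with the block), 20.0% in Wt Arg and 14.1% in Wt Leu. In Gcn Arg 3 of 17 core and 4 of 24 regulatory members were called lower, with a median of -0.19 in each particle, and 9 and 18 with the block. In Gcn Leu no core member and 6 regulatory members were called lower (medians -0.11 and -0.05), and with the block 6 of 17 and 8 of 24. Without the 3 Gcn libraries numbered 1, 3 core and 2 regulatory members were called lower in Gcn Arg (12.5% of all genes), and 1 core and 3 regulatory members in Gcn Leu (8.95%). With library-size scaling, 3 core members and no regulatory member were called lower in Gcn Arg, and no core member and 2 regulatory members in Gcn Leu (edgeR). Under that scaling 1397 of all 16369 genes were called lower in Gcn Arg and 1066 in Gcn Leu. In Wt Arg 10 of 18 core members and 8 of 24 regulatory members were called lower (medians -0.19 and -0.11), and in Wt Leu 5 of 18 and 9 of 24 (medians -0.14 and -0.15). With the block these were 10 core and 10 regulatory members in Wt Arg, and 8 and 13 in Wt Leu. Of all 16140 genes, the block called 4069 lower in Wt Arg and 3268 in Wt Leu. The genotypes share no control libraries, and members called lower in both were 5 for arginine (71.4% of the Gcn list and 27.8% of the Wt list) and 5 for leucine (83.3% of the Gcn list and 35.7% of the Wt list). Across the 41 members tested in both, Pearson's r of the Gcn and Wt log2 fold changes was 0.565 for arginine and 0.521 for leucine, below the 0.703 and 0.629 across all 15726 genes tested in both. These overlaps and correlations describe genes, which are not independent replicates. The overlap of calls over all genes was not counted, so nothing particular to the members is read from either measure.

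**Figure D2:**
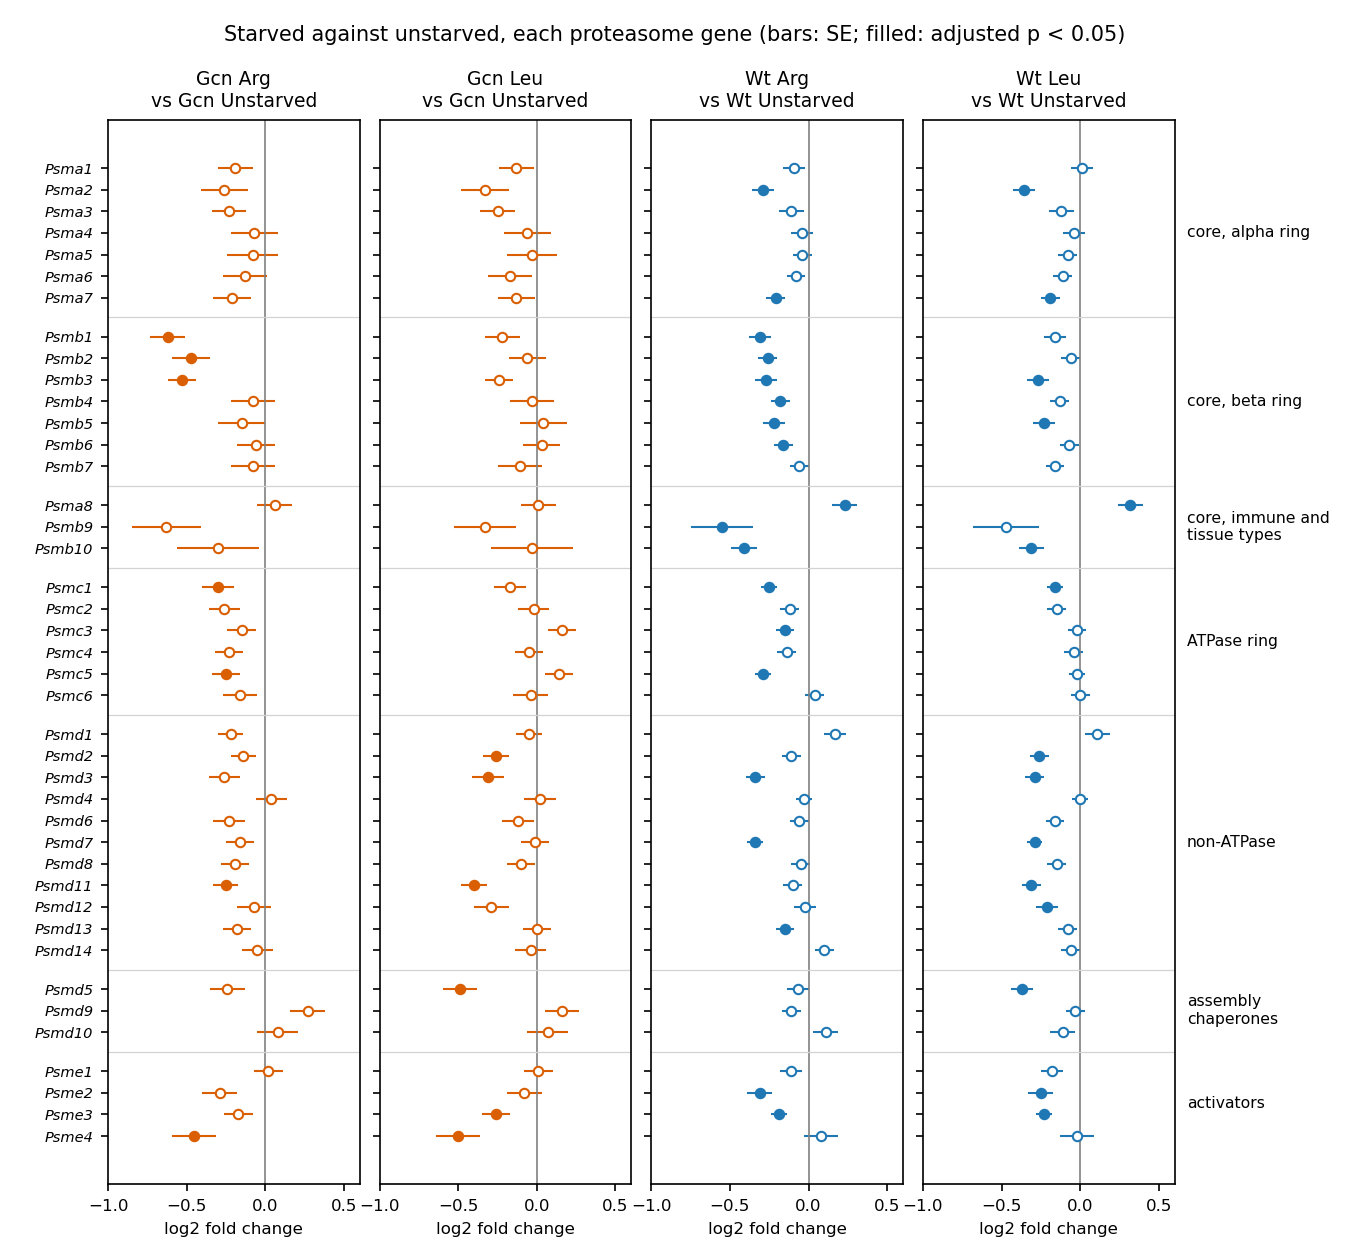
Log2 fold change (x axis) of each tested proteasome gene (rows, grouped by role) in Gcn Arg, Gcn Leu, Wt Arg and Wt Leu, each against the unstarved group of its genotype; bars are SE and filled points have an adjusted p under 0.05. Most points lie left of 0, with Psmb1, Psmb2 and Psmb3 between -0.62 and -0.47 in Gcn Arg.

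How many alpha subunits were called in Gcn depended on the fit. Of the 7 constitutive ones, none was called in Gcn Arg or Gcn Leu by edgeR, where the block gave 4 lower in each, and Psma2 and Psma7 were called lower in Wt Arg and in Wt Leu. Over all genes, 13.7% were called lower in Gcn Arg and 10.0% in Gcn Leu (24.2% and 20.2% with the block), 20.0% in Wt Arg and 14.1% in Wt Leu. Psma2 had 261, 347 and 329 CPM in Gcn Arg, 247, 333 and 312 CPM in Gcn Leu, and 308, 387 and 432 CPM in Gcn Unstarved libraries. The Gcn groups overlapped (-0.26 ± 0.15 in Gcn Arg and -0.33 ± 0.15 in Gcn Leu, where the ± of a log2 fold change is its SE, from 3 libraries a group). With the block both were called (adjusted p = 0.000729 and adjusted p = 9.93e-05). In Wt, Psma2 had 305, 335 and 299 CPM in Wt Arg, 297, 319 and 283 CPM in Wt Leu, and 383, 367 and 403 CPM in Wt Unstarved libraries. Both starved Wt groups lay below every unstarved library, by log2 -0.29 ± 0.07, adjusted p = 0.00179 in Wt Arg and log2 -0.36 ± 0.07, adjusted p = 0.000591 in Wt Leu. Psma2 lost its Wt Arg call with all 6 groups in 1 fit (adjusted p = 0.0655). Psma7 had a log2 fold change of -0.21 ± 0.06 in Wt Arg and -0.19 ± 0.06 in Wt Leu. Psma7 lost its Wt Arg call without Wt Arg 1 or Wt Unstarved 3 (adjusted p up to 0.0588) and with all 6 groups in 1 fit or with block and GC correction (adjusted p up to 0.254). Psma7 lost its Wt Leu call without Wt Leu 1, Wt Leu 2, Wt Unstarved 1 or Wt Unstarved 3 (adjusted p up to 0.113) and with all 6 groups in 1 fit or with block and GC correction (adjusted p up to 0.171). The other 5 alpha subunits ran from -0.11 to -0.04 in Wt Arg and from -0.12 to 0.01 in Wt Leu, and none passed.

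Without the block, the constitutive beta ring held most of the core members called lower with arginine starvation. With the block in Gcn Arg, the alpha ring held 4 of 9 such core members and the beta ring 3. In Gcn Arg 3 of its 7 members were called lower, the non-catalytic subunits Psmb1, Psmb2 and Psmb3, also with the block, and in Wt Arg 6 were, all but Psmb7. In Gcn Leu none was called in edgeR, or 2 with the block (Psmb1 and Psmb3), and in Wt Leu 2 were (Psmb3 and Psmb5), or 5 with the block. The shares of all genes called lower were 13.7% in Gcn Arg and 10.0% in Gcn Leu (24.2% and 20.2% with the block), 20.0% in Wt Arg and 14.1% in Wt Leu. In Wt Leu the block called 3268 of all 16140 genes lower. Psmb1 had 192, 217 and 224 CPM in Gcn Arg, 245, 302 and 286 CPM in Gcn Leu, and 290, 323 and 367 CPM in Gcn Unstarved libraries. In Wt, Psmb1 had 257, 294 and 262 CPM in Wt Arg, 289, 323 and 294 CPM in Wt Leu, and 330, 328 and 353 CPM in Wt Unstarved libraries. Gcn Arg lay below every other Gcn library and Wt Arg below every Wt Unstarved library, while Gcn Leu overlapped Gcn Unstarved. The fall was log2 -0.62 ± 0.11, adjusted p = 0.00113 in Gcn Arg and log2 -0.31 ± 0.07, adjusted p = 0.00112 in Wt Arg, and the leucine values were -0.22 ± 0.11 in Gcn Leu and -0.16 ± 0.07 in Wt Leu, called in neither (adjusted p = 0.00228 in Gcn Leu with the block). Psmb1 lies on chromosome 17, 15475021 to 15499751 of GRCm38.

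Psmb3 and Psmb2 were the other members of the ring called in Gcn Arg. Psmb3 had 135, 148 and 146 CPM in Gcn Arg, 164, 182 and 178 CPM in Gcn Leu, and 194, 202 and 229 CPM in Gcn Unstarved libraries. The fall in Gcn Arg was log2 -0.53 ± 0.09, adjusted p = 0.000725, with every Gcn Arg library below every Gcn Unstarved library. In Wt, Psmb3 had 173, 198 and 182 CPM in Wt Arg, 176, 188 and 190 CPM in Wt Leu, and 207, 213 and 250 CPM in Wt Unstarved libraries. These gave log2 -0.27 ± 0.07, adjusted p = 0.00667 in Wt Arg and log2 -0.27 ± 0.07, adjusted p = 0.00956 in Wt Leu. Psmb3 lost its Wt Leu call without Wt Unstarved 3 (adjusted p up to 0.0661). Psmb2 had 122, 150 and 138 CPM in Gcn Arg, 163, 194 and 189 CPM in Gcn Leu, and 162, 202 and 208 CPM in Gcn Unstarved libraries. The Gcn Arg libraries lay below the unstarved ones by log2 -0.47 ± 0.12, adjusted p = 0.00936, and Gcn Leu overlapped them (-0.06 ± 0.12). In Wt, Psmb2 was log2 -0.26 ± 0.06, adjusted p = 0.00342 in Wt Arg and -0.06 ± 0.06 in Wt Leu, called in the first alone. The arginine calls of Psmb1, Psmb2 and Psmb3 held in both genotypes under every alternative run, each library left out included.

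Of the catalytic subunits, Psmb5 and Psmb6 were called in Wt and Psmb7 was not. Psmb5 had 53.7, 76.1 and 68 CPM in Gcn Arg, 64.2, 85.9 and 76.1 CPM in Gcn Leu, and 62.8, 74.4 and 83.9 CPM in Gcn Unstarved libraries. These overlapped (-0.15 ± 0.15 in Gcn Arg and 0.04 ± 0.15 in Gcn Leu). In Wt, Psmb5 had 67.1, 70 and 69.5 CPM in Wt Arg, 67.3, 68.9 and 69.3 CPM in Wt Leu, and 78.4, 73.2 and 88.7 CPM in Wt Unstarved libraries. Psmb5, the chymotrypsin-like subunit, was called lower in Wt Arg (log2 -0.22 ± 0.07, adjusted p = 0.0192) and Wt Leu (log2 -0.23 ± 0.07, adjusted p = 0.0207). Psmb5 lost its Wt Arg call without Wt Arg 1 or Wt Unstarved 3 (adjusted p up to 0.112) and with all 6 groups in 1 fit or with block and GC correction (adjusted p up to 0.176). Psmb5 lost its Wt Leu call without Wt Leu 1, Wt Leu 2 or Wt Unstarved 3 (adjusted p up to 0.118) and with all 6 groups in 1 fit (adjusted p = 0.197). Psmb6 had 272, 337 and 328 CPM in Gcn Arg, 291, 364 and 343 CPM in Gcn Leu, and 301, 321 and 363 CPM in Gcn Unstarved libraries. These overlapped (-0.06 ± 0.12 in Gcn Arg and 0.03 ± 0.12 in Gcn Leu). In Wt, Psmb6 had 320, 331 and 306 CPM in Wt Arg, 348, 341 and 330 CPM in Wt Leu, and 358, 345 and 365 CPM in Wt Unstarved libraries. Psmb6, the caspase-like subunit, was called lower in Wt Arg (log2 -0.16 ± 0.06, adjusted p = 0.0378) and not in Wt Leu (-0.07 ± 0.06). Psmb6 lost its Wt Arg call without Wt Arg 1, Wt Arg 3, Wt Unstarved 1 or Wt Unstarved 3 (adjusted p up to 0.158) and with library-size scaling, when low counts were kept or with all 6 groups in 1 fit (adjusted p up to 0.188). Psmb7 had 288, 375 and 353 CPM in Gcn Arg, 285, 367 and 343 CPM in Gcn Leu, and 306, 362 and 417 CPM in Gcn Unstarved libraries. In Wt, Psmb7 had 358, 412 and 362 CPM in Wt Arg, 351, 367 and 341 CPM in Wt Leu, and 394, 379 and 407 CPM in Wt Unstarved libraries. Psmb7, the trypsin-like subunit, was called in none of the 4 comparisons (log2 -0.16 to -0.06). Psmb4 was called lower in Wt Arg alone (log2 -0.18 ± 0.06, adjusted p = 0.0232). Psmb4 lost its Wt Arg call without Wt Arg 1, Wt Arg 3, Wt Unstarved 1 or Wt Unstarved 3 (adjusted p up to 0.111) and with library-size scaling or with all 6 groups in 1 fit (adjusted p up to 0.212).

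**Figure D3:**
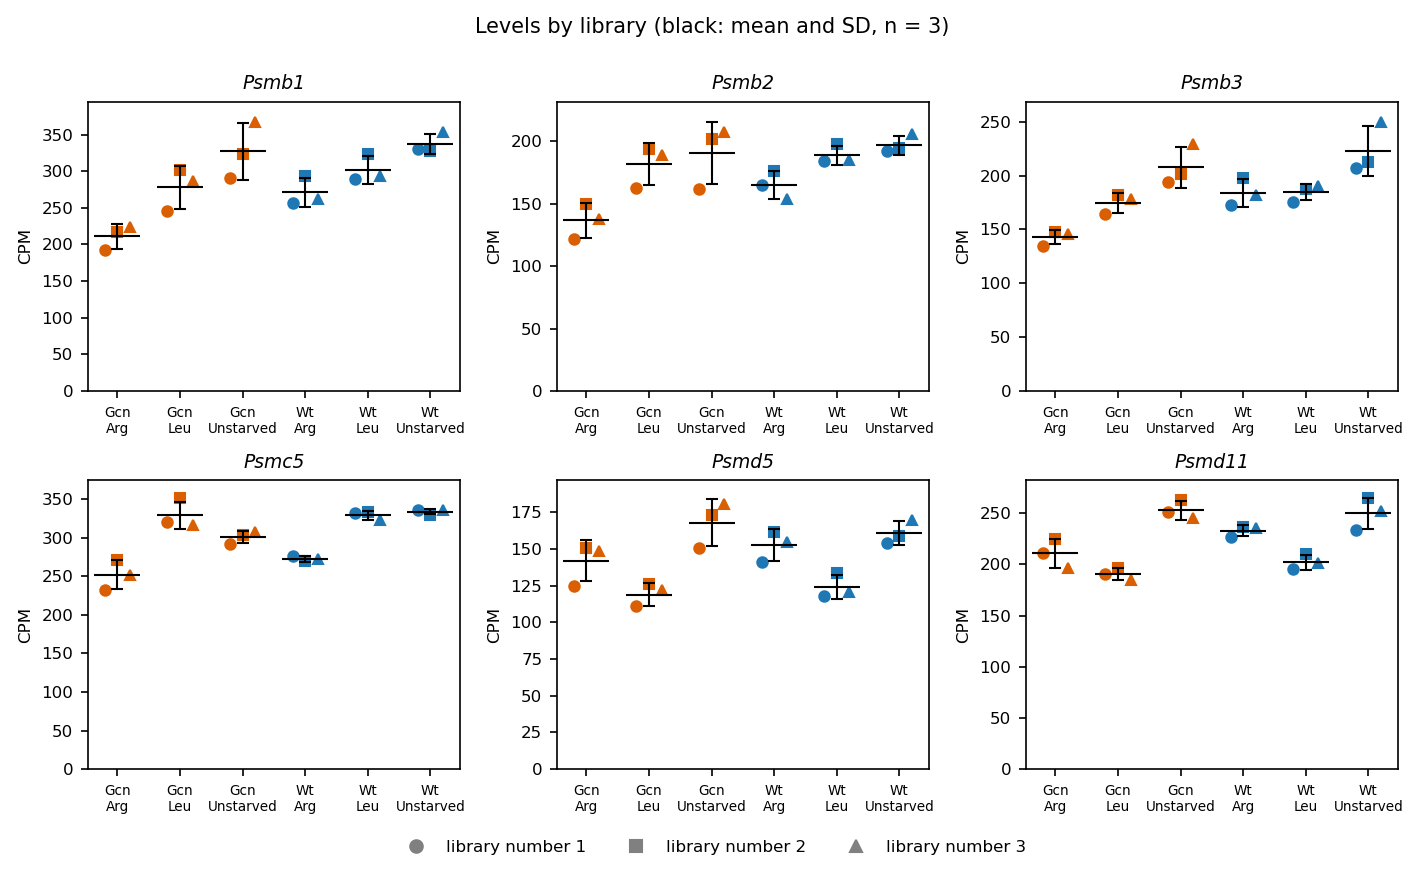
CPM of 6 proteasome genes in each library (y axis from 0), by group, with Gcn groups left of Wt groups; symbols give the library number and black bars the mean and SD of 3 libraries. By mean, Psmb1, Psmb2 and Psmc5 are lowest in the Arg group of each genotype and Psmd5 and Psmd11 in the Leu group, while Psmb3 is lowest in Gcn Arg and about equal in Wt Arg and Wt Leu.

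The immune and tissue-type core subunits were low and moved in both directions. Psmb10 had 31.5, 52 and 51.4 CPM in Gcn Arg, 40.2, 62.5 and 59.3 CPM in Gcn Leu, and 41.8, 56.2 and 68.7 CPM in Gcn Unstarved libraries. These overlapped, with number 1 lowest in each group, and Gcn Arg was called lower with the block (log2 -0.30 ± 0.07, adjusted p = 0.00211). In Wt, Psmb10 had 49.2, 48.8 and 42 CPM in Wt Arg, 54.6, 48.4 and 47.6 CPM in Wt Leu, and 64.3, 57.4 and 64.3 CPM in Wt Unstarved libraries. Psmb10, which replaces Psmb7 in the immunoproteasome, was called lower in Wt Arg (log2 -0.41 ± 0.08, adjusted p = 0.000665) and in Wt Leu (log2 -0.31 ± 0.08, adjusted p = 0.00855), with no overlap. Psmb10 lost its Wt Arg call with all 6 groups in 1 fit (adjusted p = 0.137). Psmb10 lost its Wt Leu call with all 6 groups in 1 fit (adjusted p = 0.321). Psmb9 had 0.855, 0.837 and 0.842 CPM in Gcn Arg, 0.992, 0.968 and 1.14 CPM in Gcn Leu, and 1.31, 1.22 and 1.41 CPM in Gcn Unstarved libraries. In Wt, Psmb9 had 1.02, 1.47 and 1.49 CPM in Wt Arg, 1.31, 1.58 and 1.3 CPM in Wt Leu, and 1.84, 1.73 and 2.33 CPM in Wt Unstarved libraries. Psmb9 replaces Psmb6 in the immunoproteasome. Both starved groups lay below the unstarved one in each genotype, and the Wt Arg value passed (log2 -0.55 ± 0.20, adjusted p = 0.038). Psmb9 lost its Wt Arg call without Wt Arg 1, Wt Unstarved 1 or Wt Unstarved 3 (adjusted p up to 0.161) and in DESeq2 or when low counts were kept (adjusted p up to 0.0967). In Gcn Arg it was log2 -0.63 ± 0.22, adjusted p = 0.0524, and adjusted p = 0.0333 with the block. Psma8 had 21.4, 24.4 and 22.1 CPM in Wt Arg, 23.6, 24.6 and 24.2 CPM in Wt Leu, and 19.3, 20.5 and 18.4 CPM in Wt Unstarved libraries. In Gcn Arg and Gcn Leu it was 0.06 ± 0.11 and 0.01 ± 0.11. Psma8 was the only member called higher in Wt Arg (log2 0.23 ± 0.08, adjusted p = 0.0291) and in Wt Leu (log2 0.32 ± 0.08, adjusted p = 0.0065), where the call held under every alternative. Psma8 lost its Wt Arg call without Wt Arg 2, Wt Unstarved 1 or Wt Unstarved 3 (adjusted p up to 0.151) and when low counts were kept, with all 6 groups in 1 fit or with block and GC correction (adjusted p up to 0.253).

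The ATPase ring was called lower mostly with arginine starvation. In Gcn Arg 2 of 6 ATPases were called lower (Psmc1 and Psmc5), or all 6 with the block, and in Wt Arg 3 were (Psmc1, Psmc3 and Psmc5). In Gcn Leu none was called by edgeR, while with the block Psmc3 and Psmc5 were called higher and Psmc1 lower, and in Wt Leu Psmc1 was called lower. Among all genes, 13.7% were called lower in Gcn Arg (24.2% with the block), 10.0% in Gcn Leu, 20.0% in Wt Arg and 14.1% in Wt Leu. In Gcn Leu 11.7% of all genes were called higher, and the block called 20.5% higher and 20.2% lower. With the block, 5 ATPases were called lower in Wt Arg and 2 in Wt Leu, where 4069 and 3268 of all 16140 genes were. Psmc5 had 232, 271 and 252 CPM in Gcn Arg, 321, 351 and 317 CPM in Gcn Leu, and 292, 303 and 308 CPM in Gcn Unstarved libraries. In Wt, Psmc5 had 277, 270 and 273 CPM in Wt Arg, 332, 333 and 323 CPM in Wt Leu, and 336, 330 and 336 CPM in Wt Unstarved libraries. The Arg groups were the lowest of each genotype with no overlap, Gcn Leu lay above every Gcn Unstarved library, and Wt Leu overlapped Wt Unstarved. Psmc5 was log2 -0.25 ± 0.09, adjusted p = 0.0492 in Gcn Arg, and log2 -0.29 ± 0.05, adjusted p = 0.000341 in Wt Arg, a call that held under every alternative. Psmc5 lost its Gcn Arg call without Gcn Arg 1, Gcn Arg 3, Gcn Unstarved 1, Gcn Unstarved 2 or Gcn Unstarved 3 (adjusted p up to 0.183) and with library-size scaling or without the 3 Gcn libraries numbered 1 (adjusted p up to 0.273). Psmc1 had 241, 277 and 280 CPM in Gcn Arg, 267, 307 and 298 CPM in Gcn Leu, and 305, 331 and 354 CPM in Gcn Unstarved libraries. In Wt, Psmc1 had 296, 291 and 290 CPM in Wt Arg, 318, 316 and 305 CPM in Wt Leu, and 351, 341 and 354 CPM in Wt Unstarved libraries. Each starved group but Gcn Leu lay below every unstarved library of its genotype. Psmc1 was log2 -0.30 ± 0.10, adjusted p = 0.0378 in Gcn Arg, and log2 -0.25 ± 0.05, adjusted p = 0.00125 in Wt Arg. Psmc1 lost its Gcn Arg call without Gcn Arg 1, Gcn Unstarved 2 or Gcn Unstarved 3 (adjusted p up to 0.139) and with library-size scaling (adjusted p = 0.165). The other 4 ATPases ran from -0.26 to -0.15 in Gcn Arg and from -0.15 to 0.04 in Wt Arg, where Psmc3 passed (log2 -0.15 ± 0.06, adjusted p = 0.0485). Psmc3 lost its Wt Arg call without Wt Arg 1, Wt Arg 2, Wt Arg 3, Wt Unstarved 1 or Wt Unstarved 3 (adjusted p up to 0.16) and with library-size scaling, when low counts were kept, with all 6 groups in 1 fit or with block and GC correction (adjusted p up to 0.307). In Wt Leu Psmc1 was log2 -0.16 ± 0.05, adjusted p = 0.0379. Psmc1 lost its Wt Leu call without Wt Leu 1, Wt Leu 2, Wt Leu 3, Wt Unstarved 1 or Wt Unstarved 3 (adjusted p up to 0.103) and with library-size scaling, when low counts were kept or with all 6 groups in 1 fit (adjusted p up to 0.149).

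Among the 11 non-ATPase subunits, 1 was called lower in Gcn Arg (Psmd11), or 8 with the block, and 3 in Gcn Leu (Psmd2, Psmd3 and Psmd11), or 4 with the block. In Wt Arg 3 were called lower (Psmd3, Psmd7 and Psmd13) and in Wt Leu 5 were (Psmd2, Psmd3, Psmd7, Psmd11 and Psmd12). The matching shares of all genes were 13.7% in Gcn Arg and 10.0% in Gcn Leu (24.2% and 20.2% with the block), 20.0% in Wt Arg and 14.1% in Wt Leu. Psmd7 had 330, 375 and 348 CPM in Gcn Arg, 389, 415 and 364 CPM in Gcn Leu, and 382, 395 and 405 CPM in Gcn Unstarved libraries. Gcn Arg lay below Gcn Unstarved (-0.16 ± 0.09, adjusted p = 0.0173 with the block) and Gcn Leu overlapped it (-0.01 ± 0.09). In Wt, Psmd7 had 350, 334 and 345 CPM in Wt Arg, 359, 354 and 354 CPM in Wt Leu, and 443, 418 and 438 CPM in Wt Unstarved libraries. Psmd7, a lid subunit that pairs with the deubiquitinase Psmd14, fell in both starved Wt groups with no overlap, by log2 -0.34 ± 0.05, adjusted p = 0.000114 in Wt Arg and log2 -0.29 ± 0.05, adjusted p = 0.000812 in Wt Leu. Psmd3 had 228, 262 and 214 CPM in Gcn Arg, 247, 234 and 199 CPM in Gcn Leu, and 281, 290 and 276 CPM in Gcn Unstarved libraries. Both starved Gcn groups lay below Gcn Unstarved. Gcn Leu passed (log2 -0.31 ± 0.10, adjusted p = 0.034), and Gcn Arg passed with the block (log2 -0.26 ± 0.10, adjusted p = 0.0644 without it). Psmd3 lost its Gcn Leu call without Gcn Leu 2, Gcn Leu 3, Gcn Unstarved 1, Gcn Unstarved 2 or Gcn Unstarved 3 (adjusted p up to 0.125) and with library-size scaling (adjusted p = 0.122). In Wt, Psmd3 had 253, 232 and 249 CPM in Wt Arg, 240, 254 and 271 CPM in Wt Leu, and 315, 300 and 317 CPM in Wt Unstarved libraries. Psmd3, also a lid subunit, fell by log2 -0.34 ± 0.06, adjusted p = 0.000249 in Wt Arg and log2 -0.29 ± 0.06, adjusted p = 0.00194 in Wt Leu, and these calls, like those of Psmd7 in Wt, held under every alternative.

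Psmd11 and Psmd2 changed with leucine starvation in both genotypes. Psmd11 is a lid subunit whose abundance in human embryonic stem cells is known to go with high proteasome activity, and Psmd2 is a large scaffold of the base. Psmd11 had 211, 225 and 197 CPM in Gcn Arg, 191, 197 and 185 CPM in Gcn Leu, and 251, 263 and 245 CPM in Gcn Unstarved libraries. In Wt, Psmd11 had 227, 237 and 236 CPM in Wt Arg, 196, 210 and 201 CPM in Wt Leu, and 234, 265 and 252 CPM in Wt Unstarved libraries. The Leu libraries lay below every unstarved library of their genotype, and in Gcn they overlapped Gcn Arg. The falls were log2 -0.40 ± 0.08, adjusted p = 0.00354 in Gcn Leu and log2 -0.31 ± 0.06, adjusted p = 0.000894 in Wt Leu, and both calls held under every alternative. In Gcn Arg it was log2 -0.25 ± 0.08, adjusted p = 0.0345, and in Wt Arg log2 -0.10 ± 0.06, adjusted p = 0.184. Psmd11 lost its Gcn Arg call without Gcn Arg 1, Gcn Arg 3, Gcn Unstarved 1 or Gcn Unstarved 2 (adjusted p up to 0.137) and with library-size scaling or without the 3 Gcn libraries numbered 1 (adjusted p up to 0.244). Psmd2 had 543, 562 and 511 CPM in Gcn Arg, 525, 506 and 463 CPM in Gcn Leu, and 616, 590 and 591 CPM in Gcn Unstarved libraries. In Wt, Psmd2 had 581, 551 and 600 CPM in Wt Arg, 493, 526 and 538 CPM in Wt Leu, and 629, 620 and 615 CPM in Wt Unstarved libraries. Both Leu groups lay below the unstarved group, by log2 -0.26 ± 0.08, adjusted p = 0.0329 in Gcn Leu, and log2 -0.26 ± 0.06, adjusted p = 0.00218 in Wt Leu, a call that held under every alternative. Psmd2 lost its Gcn Leu call without Gcn Leu 2, Gcn Leu 3, Gcn Unstarved 1, Gcn Unstarved 2 or Gcn Unstarved 3 (adjusted p up to 0.0962) and with library-size scaling, when low counts were kept or without the 3 Gcn libraries numbered 1 (adjusted p up to 0.148). Psmd12 passed in Wt Leu alone (log2 -0.21 ± 0.07, adjusted p = 0.0323) and Psmd13 in Wt Arg alone (log2 -0.15 ± 0.06, adjusted p = 0.0438). Psmd12 lost its Wt Leu call without Wt Leu 3, Wt Unstarved 1 or Wt Unstarved 2 (adjusted p up to 0.133) and with all 6 groups in 1 fit (adjusted p = 0.119). Psmd13 lost its Wt Arg call without Wt Arg 1, Wt Arg 2, Wt Arg 3, Wt Unstarved 1 or Wt Unstarved 3 (adjusted p up to 0.223) and with library-size scaling, when low counts were kept, with all 6 groups in 1 fit or with block and GC correction (adjusted p up to 0.123). The ubiquitin receptor Psmd4 and the deubiquitinase Psmd14 were called in none of the 4 comparisons (log2 -0.06 to 0.10).

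The members named Psmd5, Psmd9 and Psmd10 are assembly chaperones of the base that leave the finished particle. Psmd5 had 125, 151 and 149 CPM in Gcn Arg, 111, 126 and 122 CPM in Gcn Leu, and 151, 173 and 181 CPM in Gcn Unstarved libraries. In Wt, Psmd5 had 141, 162 and 155 CPM in Wt Arg, 118, 134 and 121 CPM in Wt Leu, and 154, 159 and 170 CPM in Wt Unstarved libraries. Every Leu library lay below every Unstarved library of its genotype. Psmd5 fell by log2 -0.49 ± 0.11, adjusted p = 0.00488 in Gcn Leu and log2 -0.37 ± 0.07, adjusted p = 0.000574 in Wt Leu, calls that held under every alternative. With arginine starvation it was log2 -0.24 ± 0.11, adjusted p = 0.106 in Gcn Arg, called with the block (adjusted p = 0.00086), and log2 -0.07 ± 0.07, adjusted p = 0.427 in Wt Arg. Psmd5 lies on chromosome 2, 34849734 to 34874968 of GRCm38 and overlaps Cutal on the other strand. Psmd9 and Psmd10 were called in none of the 4 comparisons, and Psmd9 was called higher in Gcn Arg with the block (log2 0.26 ± 0.08).

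Of the 4 activators, Psme1 and Psme2 form the interferon-inducible PA28 ring, Psme3 the nuclear form of it, and Psme4 is PA200, a nuclear cap linked to the turnover of acetylated histones. Psme4 had 250, 171 and 225 CPM in Gcn Arg, 219, 178 and 224 CPM in Gcn Leu, and 336, 288 and 259 CPM in Gcn Unstarved libraries. In Wt, Psme4 had 248, 229 and 219 CPM in Wt Arg, 248, 190 and 211 CPM in Wt Leu, and 215, 252 and 191 CPM in Wt Unstarved libraries. Both starved Gcn groups lay below Gcn Unstarved, by log2 -0.45 ± 0.14, adjusted p = 0.0312 in Gcn Arg and log2 -0.50 ± 0.14, adjusted p = 0.0218 in Gcn Leu, while the Wt groups overlapped (0.08 ± 0.11 in Wt Arg and -0.02 ± 0.11 in Wt Leu). Psme4 lost its Gcn Arg call without Gcn Arg 2, Gcn Arg 3, Gcn Unstarved 1 or Gcn Unstarved 2 (adjusted p up to 0.112) and with library-size scaling (adjusted p = 0.106). Psme4 lost its Gcn Leu call without Gcn Leu 2, Gcn Unstarved 1 or Gcn Unstarved 2 (adjusted p up to 0.0753) and with library-size scaling or without the 3 Gcn libraries numbered 1 (adjusted p up to 0.0715). Psme4 lies on chromosome 11, 30771726 to 30880361 of GRCm38.

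Psme3 fell in 3 of the 4 starved groups. Psme3 had 262, 303 and 265 CPM in Gcn Arg, 267, 269 and 242 CPM in Gcn Leu, and 312, 324 and 303 CPM in Gcn Unstarved libraries. In Wt, Psme3 had 334, 314 and 313 CPM in Wt Arg, 306, 316 and 316 CPM in Wt Leu, and 361, 367 and 367 CPM in Wt Unstarved libraries. Gcn Leu (log2 -0.26 ± 0.09, adjusted p = 0.0445), Wt Leu (log2 -0.23 ± 0.05, adjusted p = 0.00503) and Wt Arg (log2 -0.19 ± 0.05, adjusted p = 0.0111) passed, and Gcn Arg did with the block alone. Psme3 lost its Wt Arg call without Wt Arg 3 (adjusted p up to 0.0538). Psme3 lost its Gcn Leu call without any 1 of the 6 libraries (adjusted p up to 0.142) and with library-size scaling, when low counts were kept or without the 3 Gcn libraries numbered 1 (adjusted p up to 0.158). Psme2 had 20.6, 24.9 and 22.3 CPM in Gcn Arg, 24.4, 27.7 and 26.3 CPM in Gcn Leu, and 25.7, 25.7 and 31.8 CPM in Gcn Unstarved libraries. Gcn Arg lay below Gcn Unstarved (-0.29 ± 0.11, adjusted p = 0.00959 with the block) and Gcn Leu overlapped it (-0.08 ± 0.11). In Wt, Psme2 had 22.5, 22.3 and 23.4 CPM in Wt Arg, 25.1, 23.9 and 22.1 CPM in Wt Leu, and 28.7, 26.7 and 28.9 CPM in Wt Unstarved libraries. Psme2 was lower in Wt Arg (log2 -0.31 ± 0.08, adjusted p = 0.00413) and Wt Leu (log2 -0.25 ± 0.08, adjusted p = 0.0232), without overlap. Psme2 lost its Wt Leu call without Wt Leu 2, Wt Leu 3, Wt Unstarved 1 or Wt Unstarved 3 (adjusted p up to 0.0879) and with all 6 groups in 1 fit (adjusted p = 0.0707). Psme1 had 50.8, 53.9 and 50.8 CPM in Gcn Arg, 51, 57.2 and 46.9 CPM in Gcn Leu, and 51.8, 52.7 and 50 CPM in Gcn Unstarved libraries. In Wt, Psme1 had 47.3, 43.7 and 45.6 CPM in Wt Arg, 43.6, 41.7 and 45.7 CPM in Wt Leu, and 51.7, 47.8 and 48.2 CPM in Wt Unstarved libraries. Psme1 was called in none of the 4 comparisons.

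Leucine-starved cells were also set directly against arginine-starved cells of the same genotype. In Gcn, 4 members (9.76%) were called higher in Gcn Leu, where 4.64% of all genes were, and none lower, where 3.88% were (edgeR, with 1 at an unadjusted p under 0.05, and none by DESeq2 or limma-voom). In Wt, 1 member (2.38%) was called higher in Wt Leu, where 5.25% of all genes were, and 2 (4.76%) lower, where 4.76% were. With the block, in genotypes and groups where same-numbered libraries deviate together, 12 were higher and 3 lower in Gcn Leu (14.4% and 12.3% of all genes), and 4 higher and 6 lower in Wt Leu (10.6% and 9.98%). Psmc5 was higher in Gcn Leu than in Gcn Arg (log2 0.39 ± 0.09, adjusted p = 0.0152) and in Wt Leu than in Wt Arg (log2 0.27 ± 0.05, adjusted p = 0.00385, under every alternative), without overlap in either genotype. Psmc5 lost its Gcn Leu against Gcn Arg call without Gcn Arg 1, Gcn Arg 3 or Gcn Leu 2 (adjusted p up to 0.0811). Psmb1 (0.40 ± 0.11), Psmb2 (0.41 ± 0.12) and Psmc3 (0.31 ± 0.09) were the other members called higher in Gcn Leu, each at an adjusted p between 0.0434 and 0.0482. Psmb1 lost its Gcn Leu against Gcn Arg call without Gcn Arg 1, Gcn Arg 2, Gcn Arg 3, Gcn Leu 2 or Gcn Leu 3 (adjusted p up to 0.169) and with library-size scaling (adjusted p = 0.0557). Psmb2 lost its Gcn Leu against Gcn Arg call without Gcn Arg 1, Gcn Arg 3, Gcn Leu 2 or Gcn Leu 3 (adjusted p up to 0.157) and with library-size scaling or in limma-voom (adjusted p up to 0.0557). Psmc3 lost its Gcn Leu against Gcn Arg call without Gcn Arg 1, Gcn Arg 3, Gcn Leu 1, Gcn Leu 2 or Gcn Leu 3 (adjusted p up to 0.167) and with library-size scaling or without the 3 Gcn libraries numbered 1 (adjusted p up to 0.0802). Psmc3, an ATPase, had 416, 446 and 415 CPM in Gcn Leu and 319, 365 and 344 CPM in Gcn Arg libraries, without overlap. In Wt Leu, Psmd5 (log2 -0.30 ± 0.07, adjusted p = 0.00894) and Psmd11 (log2 -0.21 ± 0.06, adjusted p = 0.036) were lower than in Wt Arg. Psmd5 lost its Wt Leu against Wt Arg call without Wt Arg 2 (adjusted p up to 0.0613). Psmd11 lost its Wt Leu against Wt Arg call without any 1 of the 6 libraries (adjusted p up to 0.124) and with all 6 groups in 1 fit (adjusted p = 0.0897). Without the 3 Gcn libraries numbered 1, 3 members (Psmb1, Psmb2 and Psmc5) were called higher in Gcn Leu and none lower (4.12% and 3.27% of all genes).

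Between the unstarved groups, 1 member was called higher in Gcn Unstarved, where 16.6% of all 16924 genes were, and 5 (11.9%) were called lower, where 16.2% were. Without the 3 Gcn libraries numbered 1 these were 2 (Psma6 and Psmc6) and 4 (Psma7, Psmb8, Psmd9 and Psme3), where 14.9% and 16.6% of all genes were. Psmb8 had 0.087, 0.0739 and 0.114 CPM in Gcn Unstarved libraries, against 1.07, 0.825 and 0.791 CPM in Wt Unstarved libraries. Psmb8, which replaces Psmb5 in the immunoproteasome, was lower in Gcn by log2 -3.24 ± 0.46, adjusted p = 1.23e-05, on 2 to 3 counts in each Gcn Unstarved library and 17 to 32 in each Wt Unstarved library, and the call held under every alternative. In the starved groups it had 0.0855, 0.319 and 0.194 CPM in Gcn Arg and 0.106, 0.0645 and 0.177 CPM in Gcn Leu, against 0.988, 0.581 and 0.764 CPM in Wt Arg and 0.844, 1.03 and 0.51 CPM in Wt Leu libraries, so that no Gcn library reached the lowest Wt library. Psmb9 was lower by log2 -0.57 ± 0.19, adjusted p = 0.024, without overlap. Psmb9 lost its genotype call without Gcn Unstarved 1, Gcn Unstarved 2 or Wt Unstarved 3 (adjusted p up to 0.127) and in DESeq2, when low counts were kept or without the 3 Gcn libraries numbered 1 (adjusted p up to 0.099). Psmb8 and Psmb9 lie near each other in the major histocompatibility complex, where Psmb9 overlaps Tap1 and Psmb8 overlaps Gm20496 on the other strand.

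Other interferon and MHC class I genes moved beside Psmb8 in this comparison. Of 12 tested among 15 such genes, 5 were lower in Gcn Unstarved and 2 higher, among them the GTPase gene Gbp2 (-4.66 ± 0.42), the peptide transporter gene Tap2 (-2.06 ± 0.42) and H2-K1 (-1.10 ± 0.11), with Stat2 (0.53 ± 0.12) and Irf9 (0.49 ± 0.12) higher. Their summed level was 110 to 123 CPM in Gcn Unstarved and 133 to 141 CPM in Wt Unstarved, and Ifit1 was at 0 in each Wt group. Fibroblast markers moved with the genotype too: 3 of 6 tested were lower in Gcn Unstarved (Col3a1 -3.95 ± 0.39 on 1 to 3 counts in each Gcn library, Col1a2 -2.36 ± 0.25, Col1a1 -2.22 ± 0.19), the 8 summed to 9.95 to 13.4 CPM in Gcn Unstarved and 18.3 to 24.8 CPM in Wt Unstarved, and Lum was at 0 in both. With starvation the interferon and MHC list had 2 higher and 1 lower in Gcn Arg, 4 and none in Gcn Leu, 3 and 3 in Wt Arg, and 3 and 2 in Wt Leu, and no fibroblast gene was called but 1 higher in Wt Leu. Over all genes, 16.6% were called higher and 16.2% lower between unstarved groups. With starvation these shares were 14.3% and 13.7% in Gcn Arg, 11.7% and 10.0% in Gcn Leu, 20.9% and 20.0% in Wt Arg, and 15.5% and 14.1% in Wt Leu. The part of either list in the difference of Psmb8 was not tested.

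The remaining differences between unstarved groups were smaller. Psme4 had 336, 288 and 259 CPM in Gcn Unstarved libraries, against 215, 252 and 191 CPM in Wt Unstarved libraries. Psme4 was higher in Gcn (log2 0.42 ± 0.14, adjusted p = 0.0259), without overlap. Psme4 lost its genotype call without Gcn Unstarved 1, Gcn Unstarved 2, Wt Unstarved 1 or Wt Unstarved 3 (adjusted p up to 0.125) and without the 3 Gcn libraries numbered 1 (adjusted p = 0.131). Psmd9 had 41.3, 40.5 and 45.7 CPM in Gcn Unstarved libraries, against 51, 48.6 and 53.8 CPM in Wt Unstarved libraries. Psmd9 was lower by log2 -0.27 ± 0.09, adjusted p = 0.0226. Psmd9 lost its genotype call without Gcn Unstarved 1, Gcn Unstarved 2, Wt Unstarved 1 or Wt Unstarved 3 (adjusted p up to 0.0929). Psma7 had 239, 266 and 302 CPM in Gcn Unstarved libraries, against 325, 309 and 348 CPM in Wt Unstarved libraries. Psma7 was lower by log2 -0.28 ± 0.10, adjusted p = 0.0275, and Psme3 by log2 -0.22 ± 0.07, adjusted p = 0.0159. Psma7 lost its genotype call without Gcn Unstarved 1, Gcn Unstarved 2, Wt Unstarved 1 or Wt Unstarved 3 (adjusted p up to 0.147). Psme3 lost its genotype call without Gcn Unstarved 3 (adjusted p up to 0.0575) and when low counts were kept (adjusted p = 0.0526). Genotype and the history of the lines cannot be told apart in these differences.

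**Figure D4:**
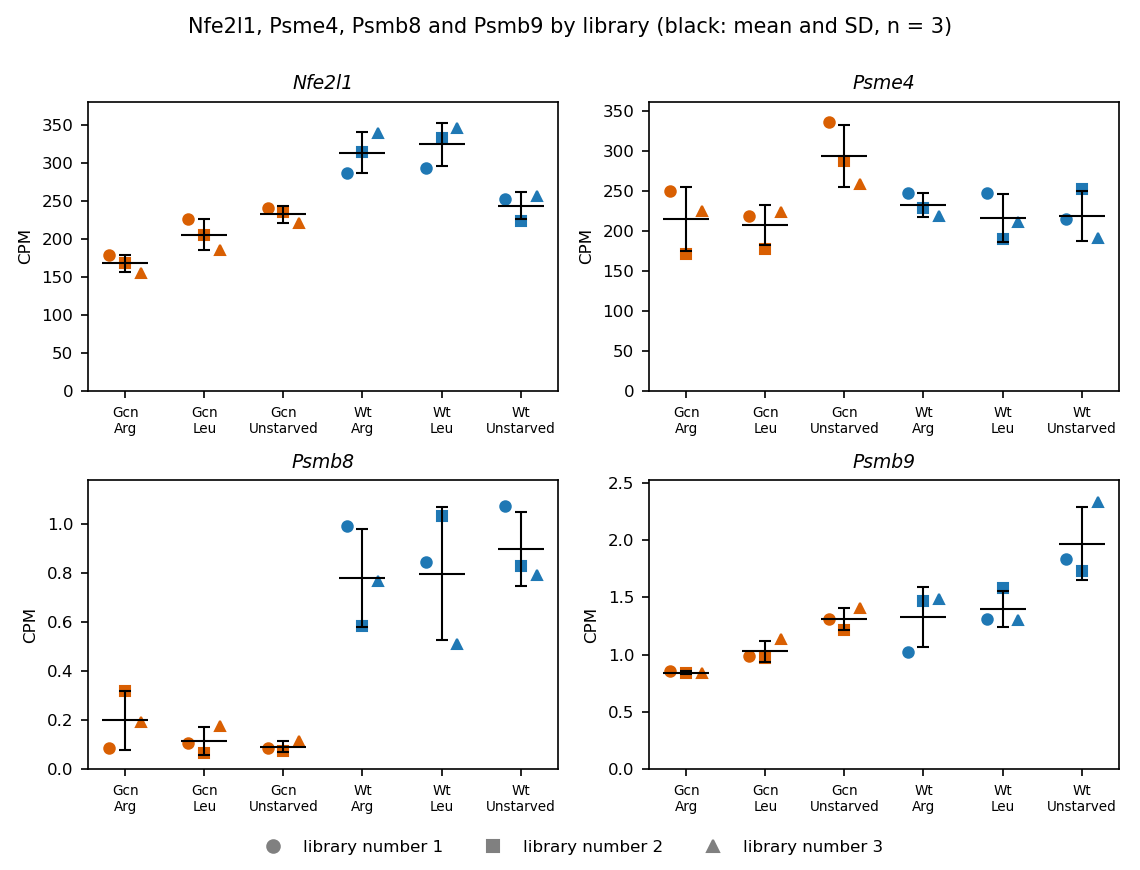
CPM of Nfe2l1, Psme4, Psmb8 and Psmb9 in each library (y axis from 0), by group, with Gcn groups left of Wt groups; symbols give the library number and black bars the mean and SD of 3 libraries. Nfe2l1 is lowest in Gcn Arg and highest in the starved Wt groups, and every Gcn library of Psmb8 lies below 0.4 CPM.

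Whether the response to starvation differed between genotypes was tested over all 18 libraries by subtracting the Wt change from the Gcn change. Without the block, no member passed for arginine (0.62% of all genes were called higher and 1.68% lower) or for leucine (0.154% and 0.668%) in edgeR. At an unadjusted p under 0.05 there were 5 for arginine (Psmb1, Psmb3, Psmd1, Psme4 lower and Psmd9 higher in Gcn) and 3 for leucine (Psma8 and Psme4 lower, Psmd7 higher). DESeq2 called Psmd1 lower for arginine, no other member for arginine and none for leucine, and limma-voom called none. With the block, edgeR called Psmb1, Psmb2, Psmb3, Psmc6 and Psmd1 lower and Psmd9 higher for arginine, where 1505 and 1000 of all 16924 genes were. For leucine it called Psma8 lower and Psmd7 higher, where 1129 and 749 of all genes were. Psmd1, a large scaffold of the base, had the lowest adjusted p in edgeR without the block: -0.39 ± 0.11, adjusted p = 0.0748. Psmd1 had 222, 201 and 211 CPM in Gcn Arg libraries, against 256, 247 and 238 CPM in Gcn Unstarved libraries. In Wt, Psmd1 had 287, 261 and 273 CPM in Wt Arg, against 248, 268 and 216 CPM in Wt Unstarved libraries. The Gcn groups did not overlap and the Wt groups did. Psmb1 differed by -0.31 ± 0.13 (adjusted p = 0.217) and Psme4 by -0.53 ± 0.20 for arginine (adjusted p = 0.173) and -0.49 ± 0.20 for leucine (adjusted p = 0.279). Without the 3 Gcn libraries numbered 1, Psmd9 was called higher for arginine (log2 0.46, adjusted p = 0.0381) and no member lower, where 1.07% and 1.69% of all genes were. For leucine none was called, where 0.191% of all genes were higher and 0.55% lower.

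Nfe2l1, which encodes NRF1, moved in opposite directions in the genotypes with arginine starvation. Nfe2l1 had 179, 169 and 156 CPM in Gcn Arg, 226, 205 and 186 CPM in Gcn Leu, and 241, 236 and 221 CPM in Gcn Unstarved libraries. In Wt, Nfe2l1 had 287, 315 and 340 CPM in Wt Arg, 294, 334 and 347 CPM in Wt Leu, and 253, 224 and 257 CPM in Wt Unstarved libraries. Gcn Arg was the lowest group, with no library reaching any Gcn Unstarved library, and both starved Wt groups lay above Wt Unstarved. It fell by log2 -0.46 ± 0.09, adjusted p = 0.00146 in Gcn Arg, was log2 -0.17 ± 0.09, adjusted p = 0.181 in Gcn Leu (adjusted p = 0.00777 with the block), and rose by log2 0.36 ± 0.08, adjusted p = 0.00109 in Wt Arg and log2 0.41 ± 0.08, adjusted p = 0.000698 in Wt Leu. The change in Gcn minus that in Wt was log2 -0.83 ± 0.12, adjusted p = 0.000452 for arginine, under every alternative, and log2 -0.59 ± 0.12, adjusted p = 0.0215 for leucine. Nfe2l1 lost its leucine interaction call without Gcn Leu 2, Gcn Unstarved 1, Gcn Unstarved 2, Wt Leu 2, Wt Leu 3 or Wt Unstarved 2 (adjusted p up to 0.0805). Between unstarved groups it was -0.07 ± 0.09.

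Of the 12 genes listed with NRF1 and its processing, 1 was called higher and 5 lower in Gcn Arg, 1 and 3 in Gcn Leu, 4 and 3 in Wt Arg, and 3 and 2 in Wt Leu. For all genes the shares called higher and lower were 14.3% and 13.7% in Gcn Arg, 11.7% and 10.0% in Gcn Leu, 20.9% and 20.0% in Wt Arg, and 15.5% and 14.1% in Wt Leu. Fbxw7, a ubiquitin ligase subunit that targets NRF1, was lower in all 4 starved groups (log2 -0.65 to -0.57), and Nfe2l2, which encodes NRF2, was higher in Gcn Arg (0.42 ± 0.10), Wt Arg (0.48 ± 0.07) and Wt Leu (0.27 ± 0.07). Nfe2l3 passed in Gcn Arg (log2 -1.51 ± 0.52, adjusted p = 0.0455) and Gcn Leu (log2 -1.48 ± 0.47, adjusted p = 0.0383). Nfe2l3 lost its Gcn Arg call without Gcn Arg 2, Gcn Arg 3, Gcn Unstarved 1, Gcn Unstarved 2 or Gcn Unstarved 3 (adjusted p up to 0.147) and with library-size scaling or without the 3 Gcn libraries numbered 1 (adjusted p up to 0.0596). Nfe2l3 lost its Gcn Leu call without any 1 of the 6 libraries (adjusted p up to 0.124) and in limma-voom or without the 3 Gcn libraries numbered 1 (adjusted p up to 0.112). Nfe2l2 lost its Wt Leu call without Wt Leu 2 (adjusted p up to 0.0613). Ddi2, the protease that releases NRF1, was lower in Gcn Arg (-0.39 ± 0.09) and Wt Arg (-0.31 ± 0.06). Nploc4, a cofactor of the segregase Vcp, was lower in Gcn Leu (-0.50 ± 0.08) and Wt Leu (-0.35 ± 0.06).

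Among 6 matched assembly factors, 2 were called higher (Akirin2 and Psmg3) and 1 lower (Psmg2) in Gcn Arg, 1 and 2 in Gcn Leu, none and 1 in Wt Arg, and 1 and 1 in Wt Leu. All tested genes gave 14.3% higher and 13.7% lower in Gcn Arg, 11.7% and 10.0% in Gcn Leu, 20.9% and 20.0% in Wt Arg, and 15.5% and 14.1% in Wt Leu. In Gcn Arg, Akirin2 lost its call without Gcn Arg 2, Gcn Arg 3, Gcn Unstarved 1 or Gcn Unstarved 3 (adjusted p up to 0.106). In Gcn Arg, Psmg3 lost its call without Gcn Arg 2, Gcn Arg 3, Gcn Unstarved 1 or Gcn Unstarved 2 (adjusted p up to 0.109). In Gcn Arg, Psmg2 lost its call without Gcn Arg 1, Gcn Arg 2, Gcn Arg 3, Gcn Unstarved 2 or Gcn Unstarved 3 (adjusted p up to 0.179) and with library-size scaling or in limma-voom (adjusted p up to 0.204). Psmg4 had 7.93, 11.3 and 11.8 CPM in Gcn Leu libraries, against 17.6, 24.2 and 26.2 CPM in Gcn Unstarved libraries. Psmg4, a chaperone of the alpha ring, was lower in Gcn Leu (log2 -1.12 ± 0.19, adjusted p = 0.0012) and in Wt Leu (log2 -0.73 ± 0.13, adjusted p = 0.000512), without overlap. Pomp had 185, 202 and 181 CPM in Wt Arg, 214, 221 and 212 CPM in Wt Leu, and 233, 224 and 254 CPM in Wt Unstarved libraries. Pomp, the maturation factor of the core particle, was lower in Wt Arg (log2 -0.32 ± 0.06, adjusted p = 0.000666) and was -0.29 ± 0.14 in Gcn Arg, 0.06 ± 0.14 in Gcn Leu and -0.14 ± 0.06 in Wt Leu. Akirin2, which carries proteasomes into the nucleus, was higher in Gcn Leu (0.53 ± 0.09), Gcn Arg (0.30 ± 0.09) and Wt Leu (0.39 ± 0.06). Of the 2 subunits without a Psm name, the ubiquitin receptor Adrm1 was lower in Gcn Leu (-0.49 ± 0.09) and Wt Leu (-0.38 ± 0.06), and passed in Wt Arg (log2 -0.15 ± 0.06, adjusted p = 0.0449), and Sem1 was called in none. Adrm1 lost its Wt Arg call without Wt Arg 1, Wt Arg 2, Wt Arg 3, Wt Unstarved 1 or Wt Unstarved 3 (adjusted p up to 0.14) and with library-size scaling, when low counts were kept, with all 6 groups in 1 fit or with block and GC correction (adjusted p up to 0.385).

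Of 13 genes for proteasome-bound enzymes, an inhibitor and shuttles, none was called higher and 3 lower in Gcn Arg (edgeR), 2 and 2 in Gcn Leu, 2 and 2 in Wt Arg, and 3 and 3 in Wt Leu. The shares over all genes were 14.3% higher and 13.7% lower in Gcn Arg, 11.7% and 10.0% in Gcn Leu, 20.9% and 20.0% in Wt Arg, and 15.5% and 14.1% in Wt Leu. Psmf1, which encodes the inhibitor PI31, was higher in Gcn Leu (0.44 ± 0.11), Wt Arg (0.42 ± 0.07) and Wt Leu (0.47 ± 0.07). Psmf1 lost its Gcn Leu call without Gcn Unstarved 3 (adjusted p up to 0.056). The shuttle gene Ubqln4 was lower in all 4 starved groups (log2 -0.73 to -0.28).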

How the data were processed

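mRNA of 18 libraries of E14 cells was sequenced, 3 in each of 6 groups. Per the submitters' processing notes, reads were aligned with STAR 2.7.4a to GRCm38 and counted with HTSeq, and the authors deposited raw read counts per gene, 1 table per genotype. The authors also deposited a normalized signal per gene, which equals the count over 1 DESeq2 size factor per library and was not tested. Annotation release and strand setting: not given in the sources used here. Gene symbols came from GENCODE vM21 (55230 of 55471 identifiers matched), and 1 companion gene (Paaf1) was not matched.

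Counts were tested with edgeR 4.0.16 (R 4.3.3): low-count filter by group, TMM scaling, robust quasi-likelihood F test and Benjamini-Hochberg adjustment over all genes, with calls at an adjusted p under 0.05. Starvation was fitted within each genotype, and the genotype comparison and interactions over all 18 libraries. An SE is the absolute log2 fold change over the square root of F. The steps were tested on simulated data with 200 changed genes. A log2 change of 0.25 was recovered for 0.0% of these in Gcn Arg, 3.5% in Wt Arg and 0.5% between unstarved groups. A change of 0.5 was recovered for 39.5%, 64.0% and 41.0%, and a change of 1 for 85.0%, 85.5% and 85.0%. More genes were called in the data than were changed there, so recovery in the data may differ. A member not called is therefore not shown to be unchanged. Alternatives were DESeq2 1.42.0, limma-voom 3.58.1, library-size scaling, no low-count filter, the other groups in the fit, each library left out, the 3 Gcn libraries numbered 1 left out, the replicate number as a block, and the block with a GC correction.

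Library totals ran from 14.8 to 38.8 M counts, and counts from sequencing without molecular identifiers carry more than counting error. Same-numbered libraries of different groups deviated from their group means together in Gcn (9 of 9 correlations over 0.1, from 0.18 to 0.49) and in part in Wt (7 of 9, from 0.05 to 0.28), and the labels do not say what a number shares. For Wt Leu against Wt Arg all 3 same-numbered Wt correlations passed. Between different numbers, 2 of 18 Gcn correlations and 0 of 18 Wt correlations were over 0.1.

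Members and gene lists were chosen with earlier results of these data known. Named in full were, per comparison, up to 6 called members of largest change in each direction, and always Psmb5 to Psmb10 and Psme1 to Psme4. Of companion lists, up to 3 called genes and always Nfe2l1 and Pomp were named. The results of 1 companion list are not reported here.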

Additional observations from a re-analysis of the deposited data

Results flagged for a closer look

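Whether the response to starvation differed between genotypes was tested for the genes of the companion and marker lists as well, as the change in Gcn minus that in Wt, and 3 of these differences passed. Over all genes, 0.62% passed higher and 1.68% lower for arginine, and 0.154% and 0.668% for leucine. Nfe2l1, the gene of NRF1, differed by -0.83 ± 0.12 for arginine (log2, SE, edgeR adjusted p = 0.000452) and by -0.59 ± 0.12 for leucine (adjusted p = 0.0215). Irf1, an interferon-responsive transcription factor gene, differed by 0.7 ± 0.16 for arginine (adjusted p = 0.0186). It had 20.6, 19.9 and 17 CPM in Gcn Arg and 21.1, 19.2 and 16.4 CPM in Gcn Unstarved libraries, which overlapped, against 14, 12.9 and 13.4 CPM in Wt Arg and 19.2, 23.7 and 21.5 CPM in Wt Unstarved libraries, which did not. The Irf1 difference was lost without Gcn Arg 2 or Wt Arg 2 (adjusted p up to 0.0587).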

How the results depend on the processing

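In Wt Arg and Wt Leu not every same-numbered correlation passed 0.1, and there the block gave 2 higher and 20 lower in Wt Arg and 1 and 21 in Wt Leu. Across the genotypes the block gave 3 and 11 for Gcn Unstarved against Wt Unstarved. It gave 1 and 5 for the arginine interaction (Psmd9 higher, Psmb1, Psmb2, Psmb3, Psmc6 and Psmd1 lower) and 1 and 1 for the leucine interaction (Psmd7 higher, Psma8 lower). Over all genes the block gave 4025 higher and 4069 lower of 16140 in Wt Arg, 3287 and 3268 in Wt Leu, 3925 and 3955 of 16924 between unstarved groups, 1000 and 1505 for the arginine interaction and 749 and 1129 for the leucine interaction. Where every same-numbered correlation passed, the block gave 1 and 27 in Gcn Arg, 2 and 14 in Gcn Leu, 12 and 3 for Gcn Leu against Gcn Arg, and 4 and 6 for Wt Leu against Wt Arg. Block and GC correction together gave 1 and 29 in Gcn Arg, 1 and 17 in Gcn Leu, 0 and 23 in Wt Arg, 1 and 23 in Wt Leu, 14 and 3 for Gcn Leu against Gcn Arg, 4 and 6 for Wt Leu against Wt Arg, 4 and 13 between unstarved groups, 1 and 5 for the arginine interaction, and 3 higher for leucine. The 4 values that changed sign there were those of Psmc6, at -0.22 in Wt Arg, -0.25 in Wt Leu and -0.17 between unstarved groups, and of Psmd11, at -0.25 between unstarved groups. The causes were not tested. Over all genes, the Spearman correlation of GC with log2 fold change was -0.322 between unstarved groups. It was 0.313 for the arginine interaction and 0.27 for the leucine interaction.

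With all groups in 1 fit there were 1 higher and 17 lower in Gcn Arg, 10 lower in Gcn Leu, 0 higher and 10 lower in Wt Arg, 8 lower in Wt Leu and 1 lower for Wt Leu against Wt Arg. Library-size scaling gave 1 higher and 3 lower in Gcn Arg, 2 lower in Gcn Leu, 2 higher in Wt Arg, 1 higher for Gcn Leu against Gcn Arg and 1 higher for the arginine interaction. Without the low-count filter there were 12 lower in Gcn Arg, 0 higher in Wt Arg, 3 lower between unstarved groups, and 2 and 1 lower for the arginine and leucine interactions. DESeq2 gave 2 higher for Wt Leu against Wt Arg and 1 lower for the arginine interaction. Without the 3 Gcn libraries numbered 1 there were 1 higher in Gcn Arg, 2 higher between unstarved groups and 1 higher for the arginine interaction.

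Leaving out 1 library gave 0 to 1 higher and 3 to 9 lower in Gcn Arg, 0 to 0 and 2 to 5 in Gcn Leu, 0 to 2 and 11 to 19 in Wt Arg, 1 to 1 and 10 to 16 in Wt Leu, 0 to 3 and 0 to 0 for Gcn Leu against Gcn Arg, 1 to 1 and 0 to 2 for Wt Leu against Wt Arg, 0 to 1 and 2 to 5 between unstarved groups, 0 to 1 and 0 to 1 for the arginine interaction, and 0 to 0 in both directions for leucine. Depth limited Psmb8, at 2 to 8 counts per Gcn library, and Psmb11.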
